A study of Mus musculus with 8 samples.

Results

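The genes described here sense oxygen or respond to its lack in mouse eyes: the prolyl hydroxylases Egln3 and Egln1, the hypoxia-inducible factor subunits Hif1a and Epas1, and the hypoxia-induced genes Vegfa, Adm, Bnip3, Ddit4 and Pfkfb3. Every probe set with 1 of these 9 symbols was taken, which gave 16 of the 22626 probe sets and 9 of the 12393 genes on the array. The group was chosen from results of these same arrays, among them the lower Egln3 signal of KPAW eyes at 1 month, so that difference is given as a description. The groups were KPAW eyes at 1 month, wild-type eyes at 1 month, KPAW eyes at 5 days and wild-type eyes at 5 days, with 2 arrays, I and II, in each. The labels do not spell out KPAW, name C57Bl6 for the 5-day wild type alone, and list no allele, strain or treatment for the other groups. They do not say whether arrays I and II came from separate animals, so p-values measure only the spread between these arrays, which may be technical.

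Cells measure oxygen through the EGLN prolyl hydroxylases, which use oxygen to hydroxylate the alpha subunits of the hypoxia-inducible factors (HIF) and so mark them for destruction through VHL. When oxygen is short, HIF1A or EPAS1 (also called HIF-2 alpha) persists, pairs with ARNT and binds the core letters ACGTG or GCGTG beside its target genes. EGLN3 is itself a HIF target in many cells, and in the eye this pathway is best known for the growth and regression of retinal vessels and for the high oxygen use of photoreceptors. HIF alpha subunits are controlled mainly as proteins, which expression arrays do not measure.

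The promoters of 4 of the genes are shown to compare the sensor whose signal moved most with age (Egln3), a sensor whose brighter probe set stayed level (Egln1), the target with the most core matches (Bnip3) and a target start site with none (Vegfa). Each window runs from 250 bases before to 50 bases after the RefSeq start site in the direction of the gene (RefSeq table for build GRCm38.p6), and capitals mark ACGTG or GCGTG on either strand, so a match on the other strand reads CACGT or CACGC. The windows are chr12:54203825-54204124 (minus strand) for Egln3, chr8:124949205-124949504 (minus strand) for Egln1, chr7:138909457-138909756 (minus strand) for Bnip3 and chr17:46032328-46032627 (minus strand) for Vegfa.
Egln3: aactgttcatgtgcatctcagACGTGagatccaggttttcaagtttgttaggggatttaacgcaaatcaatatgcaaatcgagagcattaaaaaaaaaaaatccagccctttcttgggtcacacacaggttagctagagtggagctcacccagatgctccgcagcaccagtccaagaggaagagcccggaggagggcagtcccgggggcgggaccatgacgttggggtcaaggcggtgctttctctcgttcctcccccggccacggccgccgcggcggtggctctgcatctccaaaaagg
Egln1: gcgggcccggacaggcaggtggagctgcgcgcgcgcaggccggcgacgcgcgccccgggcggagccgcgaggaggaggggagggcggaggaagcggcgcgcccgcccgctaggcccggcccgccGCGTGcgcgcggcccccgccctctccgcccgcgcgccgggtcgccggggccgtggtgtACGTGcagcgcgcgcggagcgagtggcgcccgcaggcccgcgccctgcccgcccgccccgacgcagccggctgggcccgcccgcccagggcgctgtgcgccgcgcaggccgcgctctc
Bnip3: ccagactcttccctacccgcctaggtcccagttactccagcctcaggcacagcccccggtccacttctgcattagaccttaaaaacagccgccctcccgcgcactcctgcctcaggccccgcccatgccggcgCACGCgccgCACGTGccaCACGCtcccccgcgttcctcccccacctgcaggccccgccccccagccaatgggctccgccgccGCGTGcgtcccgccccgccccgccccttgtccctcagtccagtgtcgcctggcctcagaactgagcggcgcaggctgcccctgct
Vegfa: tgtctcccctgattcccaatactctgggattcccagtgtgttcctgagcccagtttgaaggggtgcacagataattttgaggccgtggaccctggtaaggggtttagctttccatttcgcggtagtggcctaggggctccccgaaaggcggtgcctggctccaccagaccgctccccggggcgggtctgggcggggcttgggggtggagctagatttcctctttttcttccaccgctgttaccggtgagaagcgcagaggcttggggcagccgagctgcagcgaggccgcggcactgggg

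The Egln3 window held 1 ACGTG, whose first base lay at -229 from the start site. The Egln1 window held 1 ACGTG and 1 GCGTG, and the Bnip3 window held 2 ACGTG and 3 GCGTG, the palindrome CACGTG counting once on each strand. The second Vegfa start site in RefSeq had 1 match to each motif in its window. Among the other members, the windows held 3 ACGTG for Hif1a, 1 of each motif for Ddit4, 2 GCGTG for Adm, and 1 ACGTG or 2 of each motif at the 2 start sites of Pfkfb3. Epas1 is named only. Of all 32851 promoter windows of this length, 19.6% held ACGTG, 32.4% held GCGTG and 43.8% held at least 1 of them. A match describes these letters and is not a site of binding.

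Signals were deposited as 1 value per probe set and array, were scaled here to the same trimmed mean on each array, and were tested as log2(signal + 0.0211) with limma. They compare groups within a probe set and do not rank genes. Fold changes are therefore on the log2(signal + pseudocount) scale, which understates the change of dim probe sets, and a call means a Benjamini-Hochberg adjusted p under 0.05 over all 15838 tested probe sets. As whole eyes were measured, fewer cells of a type and less RNA per cell cannot be told apart.

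The arrays differed in tissue and sex markers in ways that touch the results. The summed signal of 8 rod genes was 0.685 and 24.6 in KPAW arrays I and II at 1 month, 22.2 and 26.97 in wild type at 1 month, and 5.91 to 6.49 at 5 days. On the rod-poor KPAW array, 4 of the 8 rod genes (Pde6a, Pde6b, Cnga1 and Prph2) were at the lowest listed value. The summed signal of 9 genes of keratinized epithelium was 26.99 and 13.3 in KPAW and 3.07 and 3.40 in wild type at 1 month, and at 5 days it was 8.88 and 0.527 in KPAW and 4.79 and 0.710 in wild type. The summed signal of 7 genes of corneal epithelium was 17.6 and 22.5 in KPAW and 24.9 and 26.8 in wild type at 1 month, and 9.33 and 2.855 in KPAW and 3.86 and 3.48 in wild type at 5 days, with Aqp5 at the lowest listed value on wild-type array I of 5 days. Xist, the RNA of the inactive X chromosome, read 0.0861 and 0.0621 in KPAW and 0.0818 and 0.0524 in wild type at 1 month, and 0.0821 and 3.13 in KPAW and 2.95 and 3.64 in wild type at 5 days. Y-linked Eif2s3y ran the other way, so in wild type the age comparison is also a comparison of female-pattern 5-day arrays with male-pattern 1-month arrays, and age and sex cannot be told apart there. In KPAW, 5-day array I had the male pattern of the 1-month arrays.

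Egln3, the hydroxylase best known for its induction by hypoxia, changed with age in both kinds of eye. Its brighter probe set, 1418649_at, read 0.309 and 0.278 in KPAW arrays I and II and 0.682 and 0.574 in wild type at 1 month. At 5 days it read 0.101 and 0.104 in KPAW and 0.0879 and 0.102 in wild type. All 1-month arrays lay above all 5-day arrays, and at 1 month both KPAW arrays lay below both wild-type arrays. The group means were 0.293 ± 0.0215 in KPAW at 1 month, 0.628 ± 0.0761 in wild type at 1 month, 0.102 ± 0.00193 in KPAW at 5 days and 0.0948 ± 0.00971 in wild type at 5 days (SD, n = 2 arrays each). At 1 month over 5 days the ratio of means was 2.86 in KPAW and 6.63 in wild type. On the log2 scale the rise was 1.35 in KPAW (SE 0.15, limma adjusted p = 0.00195) and 2.48 in wild type (SE 0.15, limma adjusted p = 0.000172).

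The age change of this probe set in KPAW was also fitted without single arrays. It was 1.36 without KPAW array II of 5 days (limma adjusted p = 0.0164), which leaves 3 KPAW arrays of 1 sex pattern, and 1.28 without the rod-poor KPAW array of 1 month (limma adjusted p = 0.00615). In each of these fits 1 KPAW age holds a single array, which is assumed to vary like the other groups. Between groups, the summed corneal epithelium signal ran in the same direction as Egln3 with age and between KPAW and wild type at 1 month. It was 17.6 to 26.8 at 1 month and 2.855 to 9.33 at 5 days, and at 1 month 17.6 to 22.5 in KPAW and 24.9 to 26.8 in wild type. Within KPAW it did not follow Egln3. At 1 month array I had the lower sum (17.6 against 22.5) but the higher 1418649_at signal (0.309 against 0.278). At 5 days array I had the higher sum (9.33 against 2.855) at a level 1418649_at signal (0.101 against 0.104). Within the sum, Krt14 and Clu were higher in both KPAW arrays of 1 month than in both wild-type arrays (Krt14 4.05 and 3.14 against 0.590 and 0.597). Krt12, Slurp1, Aldh3a1, Aqp5 and Krt5 were lower (Krt12 0.391 and 5.13 against 6.76 and 7.815). Rod markers were higher at 1 month on every array but the rod-poor one. The part of these tissues in the Egln3 values was not tested.

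The second Egln3 probe set, 1418648_at, repeated the age change but not the size of the KPAW difference. It read 0.278 and 0.129 in KPAW and 0.3001 and 0.2999 in wild type at 1 month, and 0.0165 and 0.0385 in KPAW and 0.0458 and 0.0472 in wild type at 5 days. The KPAW arrays of 5 days, which differ in sex markers, lay further apart here than in the first probe set. Both KPAW arrays lay below both wild-type arrays at each age, and the rod-poor array I was the closer of the 2 KPAW arrays to wild type at 1 month. The rise with age was 2.16 in KPAW (SE 0.33, limma adjusted p = 0.00611) and 2.25 in wild type (SE 0.33, limma adjusted p = 0.00434). Without KPAW array I of 5 days the rise in KPAW was 1.83. The call in KPAW was lost when only the KPAW groups were fitted (limma adjusted p = 0.0508). Across the 8 arrays the 2 probe sets had a Pearson correlation of 0.94, over points that fall into 2 ages.

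**Figure D1:**
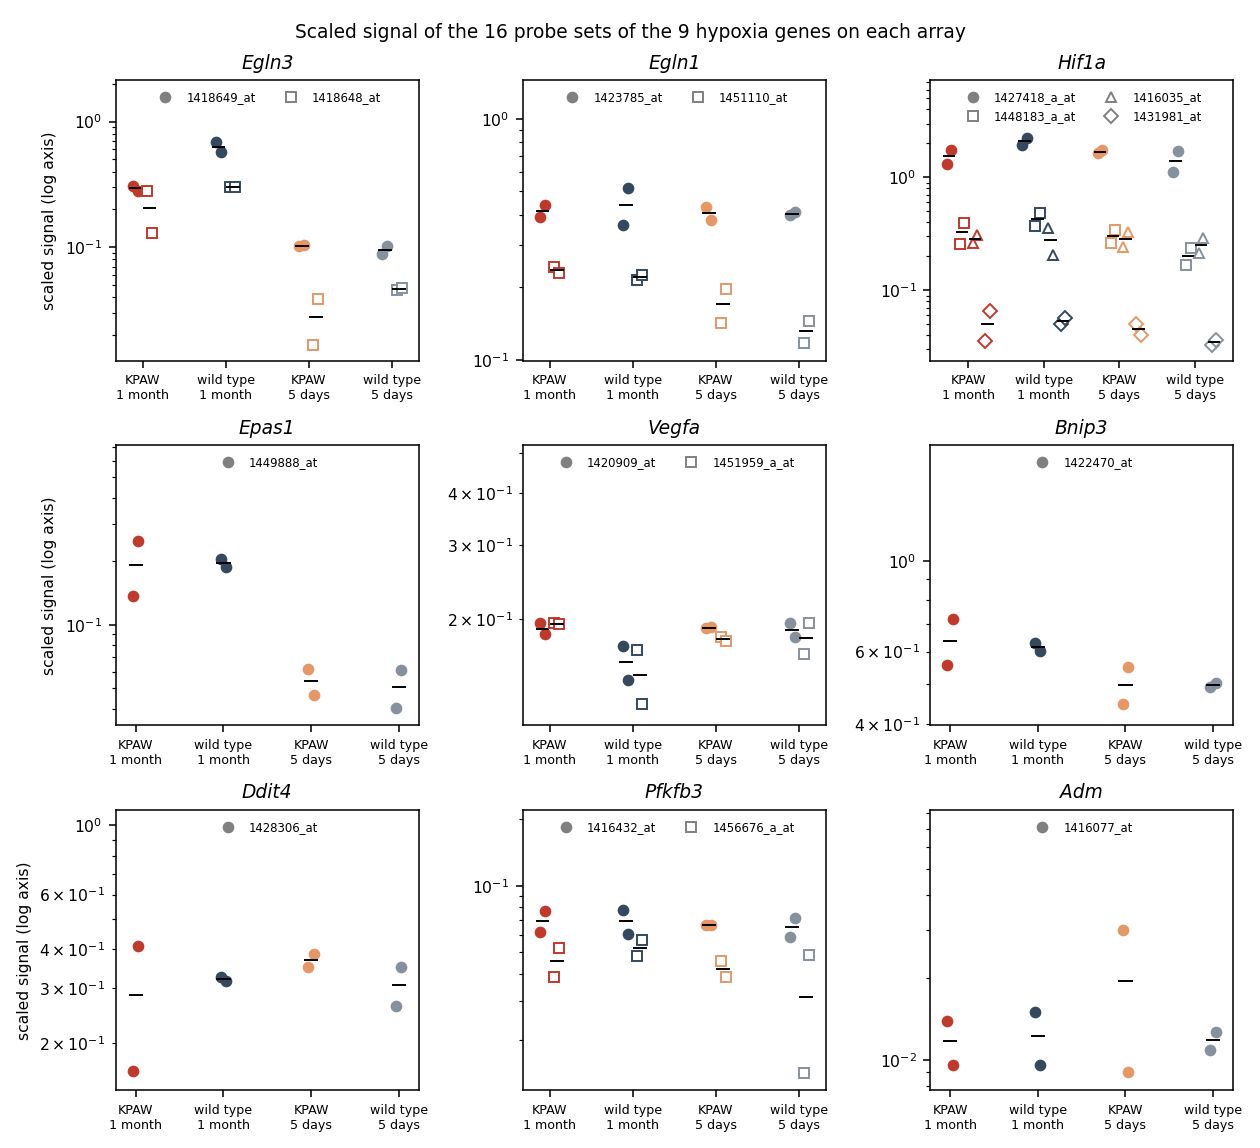
Scaled signal (log axis, no unit) of each of the 16 probe sets in the 4 groups, with a point per array, a marker shape per probe set and a black bar at the mean of 2 arrays. Egln3 probe set 1418649_at stands at 0.278 to 0.682 at 1 month and 0.0879 to 0.104 at 5 days, and Epas1 separates the ages in the same direction.

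The KPAW difference in Egln3 at 1 month was a log2 difference of -1.04 for 1418649_at (SE 0.15), a ratio of means of 0.467. As the genes were chosen with this value known, its limma adjusted p of 0.136 is printed only to show that it did not pass. It passed under 2 of 18 alternatives, the unscaled values (-1.32, limma adjusted p = 0.0327) and the fit without KPAW array II of 1 month (-0.97). In the second of these fits it rested on the rod-poor array alone for KPAW at 1 month. Without the rod-poor KPAW array I it was -1.11 (limma adjusted p = 0.358). For 1418648_at the difference was -0.60 (SE 0.33, limma adjusted p = 0.675). That value moved to -0.105 without KPAW array II and to -1.097 without KPAW array I. Keratinized epithelium markers moved with this comparison, with sums of 13.3 to 26.99 in KPAW and 3.07 to 3.40 in wild type, and their part in the Egln3 difference was not tested. At 5 days the log2 difference was 0.10 for 1418649_at and -0.51 for 1418648_at (SE 0.15 and 0.33, limma adjusted p = 1 for both).

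The change of the KPAW difference between the ages contains the 1-month difference on which the genes were chosen, so it too is a description. It was -1.14 for 1418649_at (SE 0.21) and -0.09 for 1418648_at (SE 0.47), and neither passed (limma adjusted p = 0.65 and 0.973).

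Egln1, the main HIF hydroxylase in most tissues, gave 1 flat probe set and 1 that was higher at 1 month. Probe set 1423785_at read 0.390 and 0.438 in KPAW and 0.363 and 0.517 in wild type at 1 month, and 0.430 and 0.380 in KPAW and 0.400 and 0.409 in wild type at 5 days. Its groups overlapped in every comparison, and its log2 change with age was 0.03 in KPAW and 0.10 in wild type (SE 0.18 each, limma adjusted p = 0.926 and 0.744). Probe set 1451110_at read 0.243 and 0.230 in KPAW and 0.2145 and 0.225 in wild type at 1 month, and 0.142 and 0.197 in KPAW and 0.1175 and 0.145 in wild type at 5 days. Here every 1-month array lay above every 5-day array. The log2 change was 0.45 in KPAW (SE 0.18, limma adjusted p = 0.134) and 0.67 in wild type (SE 0.18, limma adjusted p = 0.0373). The wild-type call was lost when any 1 of the 4 wild-type arrays was left out and when dim probe sets were not filtered. The 2 probe sets had a Pearson correlation of 0.115 over the 8 arrays.

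Egln2, the third hydroxylase and no member of the chosen group, read 0.363 and 0.334 in KPAW and 0.298 and 0.356 in wild type at 1 month, and 0.405 and 0.343 in KPAW and 0.3765 and 0.403 in wild type at 5 days. Its log2 change with age was -0.09 in KPAW and -0.24 in wild type (SE 0.15 each), and neither was called (limma adjusted p = 0.715 and 0.294).

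Epas1, the HIF alpha subunit known for its role in vessels, was higher at 1 month in both kinds of eye. Its probe set read 0.137 and 0.249 in KPAW and 0.205 and 0.1885 in wild type at 1 month, and 0.0617 and 0.0465 in KPAW and 0.0401 and 0.0608 in wild type at 5 days. The ages did not overlap, while KPAW and wild type overlapped at each age. The ratio of means was 3.57 in KPAW and 3.9 in wild type. On the log2 scale Epas1 rose by 1.465 in KPAW (SE 0.27, limma adjusted p = 0.0128) and by 1.62 in wild type (SE 0.27, limma adjusted p = 0.00742).

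The calls for Epas1 were near the threshold in some fits. In KPAW the rise was 1.32 without 5-day array II (limma adjusted p = 0.0805), and 1.85 without the rod-poor array (limma adjusted p = 0.00481). The call in KPAW was also lost when only the KPAW groups were fitted (limma adjusted p = 0.0595). In wild type the call was lost without array I of 5 days (1.41, adjusted p = 0.0569) or array I of 1 month (1.57, adjusted p = 0.055). The summed signal of 10 endothelial genes ran the other way with age, at 1.33 and 0.982 in KPAW and 1.02 and 1.00 in wild type at 1 month, against 1.46 and 1.43 in KPAW and 1.82 and 1.64 in wild type at 5 days. Among them Tie1 was at the lowest listed value on 3 arrays, and the part of endothelium in the Epas1 change was not tested. The log2 difference between KPAW and wild type was -0.08 at 1 month and 0.08 at 5 days (SE 0.27 each, limma adjusted p = 0.956 and 1).

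Hif1a, the widely expressed HIF alpha subunit, differed between its 4 probe sets. The brightest, 1427418_a_at, read 1.33 and 1.76 in KPAW and 1.94 and 2.26 in wild type at 1 month, and 1.63 and 1.745 in KPAW and 1.12 and 1.70 in wild type at 5 days. At 1 month both KPAW arrays lay below both wild-type arrays, at 5 days the groups overlapped, and wild type was higher at 1 month than at 5 days without overlap. None of this was called: the log2 change with age was -0.14 in KPAW and 0.59 in wild type (SE 0.22 each, limma adjusted p = 0.709 and 0.103), and the KPAW difference at 1 month was -0.45 (SE 0.22, limma adjusted p = 0.675). The wild-type age change of this probe set passed in the unscaled values (limma adjusted p = 0.00195).

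Probe set 1448183_a_at of Hif1a read 0.258 and 0.396 in KPAW and 0.3735 and 0.485 in wild type at 1 month, and 0.262 and 0.342 in KPAW and 0.167 and 0.240 in wild type at 5 days. In wild type both 1-month arrays lay above both 5-day arrays, while the KPAW ages overlapped. The log2 change was 0.09 in KPAW (SE 0.26, limma adjusted p = 0.849) and 1.01 in wild type (SE 0.26, limma adjusted p = 0.0317). The wild-type call was lost when any 1 of the 4 wild-type arrays was left out. The change of the KPAW difference between the ages was -0.92 for this probe set (SE 0.36) and -0.73 for 1427418_a_at (SE 0.31), and neither passed (limma adjusted p = 0.809 for both). The other 2 probe sets were not called for age: the wild-type change was 0.10 for 1416035_at and 0.42 for 1431981_at (limma adjusted p = 0.822 and 0.268). Hif3a is counted with the HIF subunits, partners and co-regulators below. Its brightest probe set had a log2 change of -0.53 in KPAW and -0.45 in wild type (SE 0.23 each, limma adjusted p = 0.165 and 0.215). Its probe set 1425429_s_at changed by -0.07 in KPAW and 0.335 in wild type (SE 0.22 each, limma adjusted p = 0.859 and 0.322).

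Among the targets, Vegfa, the main signal for vessel growth, showed no call with age or between kinds of eye. Probe set 1420909_at read 0.195 and 0.184 in KPAW and 0.173 and 0.143 in wild type at 1 month, and 0.190 and 0.191 in KPAW and 0.196 and 0.1815 in wild type at 5 days. Probe set 1451959_a_at read 0.195 and 0.195 in KPAW and 0.168 and 0.125 in wild type at 1 month, and 0.181 and 0.177 in KPAW and 0.165 and 0.196 in wild type at 5 days. In both probe sets the 2 wild-type arrays of 1 month lay below both KPAW arrays of that age. The log2 difference there was 0.24 (SE 0.14) and 0.38 (SE 0.17), with limma adjusted p = 0.694 and 0.675. With age the change was -0.01 and 0.11 in KPAW, and -0.23 and -0.27 in wild type. In the unscaled values, 1420909_at turned to -0.01 between KPAW and wild type at 1 month and to 0.22 with age in wild type.

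Adm, which encodes the vessel-relaxing peptide adrenomedullin, was too dim to be tested. It read 0.0138 and 0.00958 in KPAW and 0.0149 and 0.00955 in wild type at 1 month, and 0.0298 and 0.00901 in KPAW and 0.0109 and 0.01265 in wild type at 5 days. The lowest listed value was reached on 5 of the 8 arrays, namely array II of every group and array I of wild type at 5 days. No fold change is given for it.

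Bnip3, which marks mitochondria for removal, was slightly higher at 1 month without passing the test. It read 0.558 and 0.719 in KPAW and 0.632 and 0.6005 in wild type at 1 month, and 0.446 and 0.549 in KPAW and 0.493 and 0.5025 in wild type at 5 days. The ages did not overlap in either kind of eye, and KPAW and wild type overlapped at both ages. The log2 change was 0.34 in KPAW and 0.30 in wild type (SE 0.16 each, limma adjusted p = 0.202 and 0.248).

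Ddit4, an inhibitor of the growth kinase TORC1, varied most between the KPAW arrays of 1 month. It read 0.163 and 0.411 in KPAW and 0.326 and 0.317 in wild type at 1 month, and 0.352 and 0.387 in KPAW and 0.263 and 0.351 in wild type at 5 days. The lowest and the highest value of all 8 were those of KPAW arrays I and II at 1 month. The log2 change with age was -0.47 in KPAW and 0.07 in wild type (SE 0.35 each, limma adjusted p = 0.402 and 0.904). Without KPAW array II of 1 month, which leaves the rod-poor array alone at that age, the change in KPAW was -1.09 and was called (limma adjusted p = 0.0147). The paralog Ddit4l was not called for age: the log2 change of its brighter probe set was 0.36 in KPAW and 0.37 in wild type (SE 0.22 each, limma adjusted p = 0.318 and 0.282), and that of the other was 0.035 in KPAW and 0.53 in wild type (SE 0.21 each, limma adjusted p = 0.928 and 0.119).

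Pfkfb3, which makes the sugar phosphate that speeds up glycolysis, was level in its brighter probe set. Probe set 1416432_at read 0.0616 and 0.0770 in KPAW and 0.07775 and 0.0603 in wild type at 1 month, and 0.0663 and 0.0663 in KPAW and 0.0585 and 0.0713 in wild type at 5 days. Its groups overlapped in every comparison, and its log2 change with age was 0.04 in KPAW and 0.065 in wild type (SE 0.19 each, limma adjusted p = 0.901 and 0.839). The dimmer probe set 1456676_a_at read 0.0385 and 0.0525 in KPAW and 0.0480 and 0.0569 in wild type at 1 month, and 0.0454 and 0.0387 in KPAW and 0.0142 and 0.0486 in wild type at 5 days. Wild-type array I of 5 days was the low one, and the groups overlapped in every comparison. The log2 change with age was 0.07 in KPAW and 0.57 in wild type (SE 0.32 each, limma adjusted p = 0.906 and 0.257), and the KPAW difference at 5 days was 0.35 (limma adjusted p = 1). Its paralog Pfkfb2 differed: probe set 1422092_at read 0.0373 and 0.108 in KPAW and 0.109 and 0.131 in wild type at 1 month, and 0.0336 to 0.0390 at 5 days. This probe set rose with age in wild type (log2 change 1.31, SE 0.34, limma adjusted p = 0.0326) and was not called in KPAW (0.60, SE 0.34, limma adjusted p = 0.272). Probe set 1422090_a_at was also called in wild type (1.91, SE 0.48, limma adjusted p = 0.0312), with both 5-day arrays at the lowest listed value. Probe set 1422091_at was not (0.98, SE 0.48, limma adjusted p = 0.191), and neither was called in KPAW (limma adjusted p = 0.314 and 0.365). The rod-poor array had the lowest Pfkfb2 value of the 1-month arrays, close to the 5-day level.

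Counted over all comparisons, the members were called for age only. The members were chosen with earlier results of these arrays known, so the age counts here and below are descriptions. Of the 15 tested member probe sets, 3 were higher and 0 lower at 1 month in KPAW, where 6.76% of all probe sets were called higher and 7.51% lower. In wild type 5 were higher and 0 lower, where 8.73% were called higher and 9.33% lower. The median log2 change was 0.08 over the members and -0.04 over all probe sets in KPAW, and 0.42 over the members and -0.004 over all probe sets in wild type. Per gene, Egln3 and Epas1 were the 2 of 8 tested genes whose brightest probe set was called, in each kind of eye. Of all 9492 genes, 731 were called higher in KPAW and 825 in wild type. The medians over member probe sets count genes with several probe sets more than once. Over the brightest probe sets alone, the member median was 0.038 in KPAW and 0.196 in wild type, beside -0.026 and -0.013 over all genes.

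**Figure D2:**
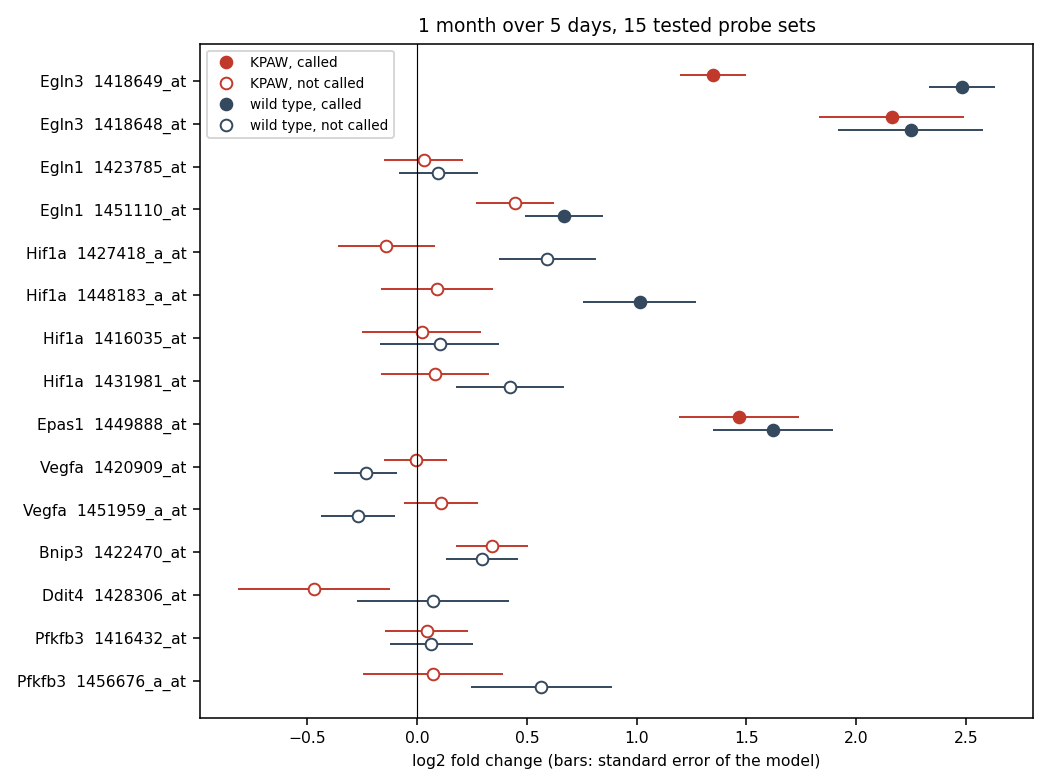
Log2 fold change of 1 month over 5 days for the 15 tested probe sets, KPAW above wild type in each pair, with bars for the standard error of the model and filled points for calls. Egln3 and Epas1 stand at 1.35 or more in both kinds of eye, while Vegfa, Pfkfb3 1416432_at and Egln1 1423785_at lie within 0.27 of 0.

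Without overlap between the 2 arrays of each age, 6 member probe sets were higher and 0 lower in KPAW, where 25.3% of all probe sets were higher in this way and 32.2% lower. In wild type 8 were higher and 1 was lower, where the shares of all probe sets were 32.5% and 33.0%. The lower one was Vegfa 1420909_at, the probe set whose sign turned in the unscaled values. The 6 in KPAW were those of Egln3, Epas1 and Bnip3, Egln1 1451110_at and Vegfa 1451959_a_at.

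Between KPAW and wild type, 0 of the 15 member probe sets were called at 1 month, where 0.0126% of all probe sets were called higher and 0.0126% lower. At 5 days 0 members were called and 0% of all probe sets in each direction, and the change of the difference between the ages likewise called 0 members and 0% of all. In limma at an unadjusted p under 0.05, 1 member probe set passed at 1 month, 0 at 5 days and 3 for the change between the ages. Of all probe sets 1100 (6.95%), 378 (2.39%) and 932 (5.88%) did so. The 1 was Egln3 1418649_at, which was also among the 3. The genes were chosen with its 1-month difference known, so these counts and the lower count that follows are descriptions. At 1 month 3 member probe sets were higher in KPAW without overlap and 3 were lower, where 17.0% of all probe sets were higher in this way and 19.6% lower. The higher ones were both of Vegfa and Egln1 1451110_at (whose log2 difference of 0.10 turned to -0.16 in the unscaled values), and the lower ones were both of Egln3 and Hif1a 1427418_a_at. At 5 days 3 were higher (Ddit4 and 2 of Hif1a) and 1 was lower (Egln3 1418648_at), where the shares of all probe sets were 16.8% and 16.6%.

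**Figure D3:**
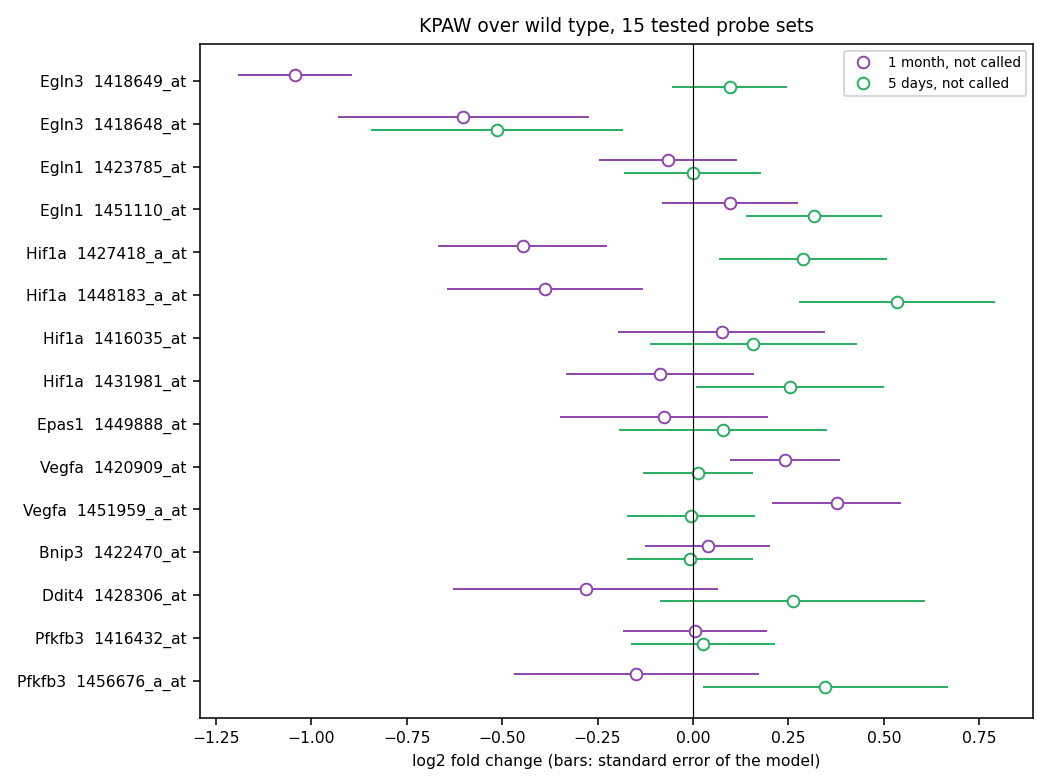
Log2 fold change of KPAW over wild type for the 15 tested probe sets, 1 month above 5 days in each pair, with bars for the standard error of the model and open points because none was called. Egln3 1418649_at at 1 month, at -1.04, lies farthest from 0.

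Other genes of the pathway were grouped in 6 lists, which held 99 genes on the array and 90 that could be tested. The lists too were chosen with earlier results of these data known, so their counts are descriptions. Of 19 glucose uptake and glycolysis genes, 7 were called higher at 1 month, 0 lower and 12 not called in KPAW, where 731 of all 9492 genes were called higher. In wild type 12 were called higher, 0 lower and 7 not called, where 825 of all 9492 genes were called higher. The list's median log2 change was 0.54 in KPAW and 0.69 in wild type, beside -0.03 and -0.01 over all 9492 genes tested. Among the called genes, the largest changes in KPAW were those of Aldoc (1.51, adjusted p = 0.000499), an aldolase of neural tissue, Hk1 (1.05, adjusted p = 0.033), the first enzyme of glucose use in neurons, and Pfkp (1.03, adjusted p = 0.019), a phosphofructokinase. In wild type they were those of Hk2 (1.99, adjusted p = 0.0164), a second hexokinase that was not called in KPAW (1.41, adjusted p = 0.0605), Ppp1r3c (1.85, adjusted p = 0.000698), which directs a phosphatase to glycogen, and Pfkp (1.48, adjusted p = 0.00412). Further genes of this list were named after their values were seen. Ldha (-0.46 in KPAW and -0.30 in wild type), Pgk1 (0.15 and 0.08) and Slc2a1 (-0.15 and -0.20) were not called (limma adjusted p from 0.123 to 0.733). Aldoa (0.72 and 0.92, limma adjusted p = 0.0148 and 0.0051) and Slc2a3 (0.70 and 0.765, limma adjusted p = 0.0242 and 0.015) were called higher in both kinds of eye.

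The count for glycolysis depended on the arrays used. In KPAW, 3 of 19 were called higher without either KPAW array of 5 days, 5 without KPAW array II of 1 month (with 2 called lower) or any wild-type array, and 8 without the rod-poor array. In wild type, 4 of 19 were called higher when any 1 wild-type array was left out, and 11 or 12 without a KPAW array. Hk2 read 0.2915 and 0.921 in KPAW and 0.906 and 0.973 in wild type at 1 month, and 0.181 and 0.185 in KPAW and 0.208 and 0.232 in wild type at 5 days. The Hk2 signal of the rod-poor array lay below those of the other 3 arrays of 1 month and above all of 5 days. Aldoc read 2.79 and 2.66 in KPAW and 2.44 and 2.66 in wild type at 1 month, and 0.947 and 0.942 in KPAW and 1.05 and 1.06 in wild type at 5 days. It was as high on the rod-poor array as on the others.

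**Figure D4:**
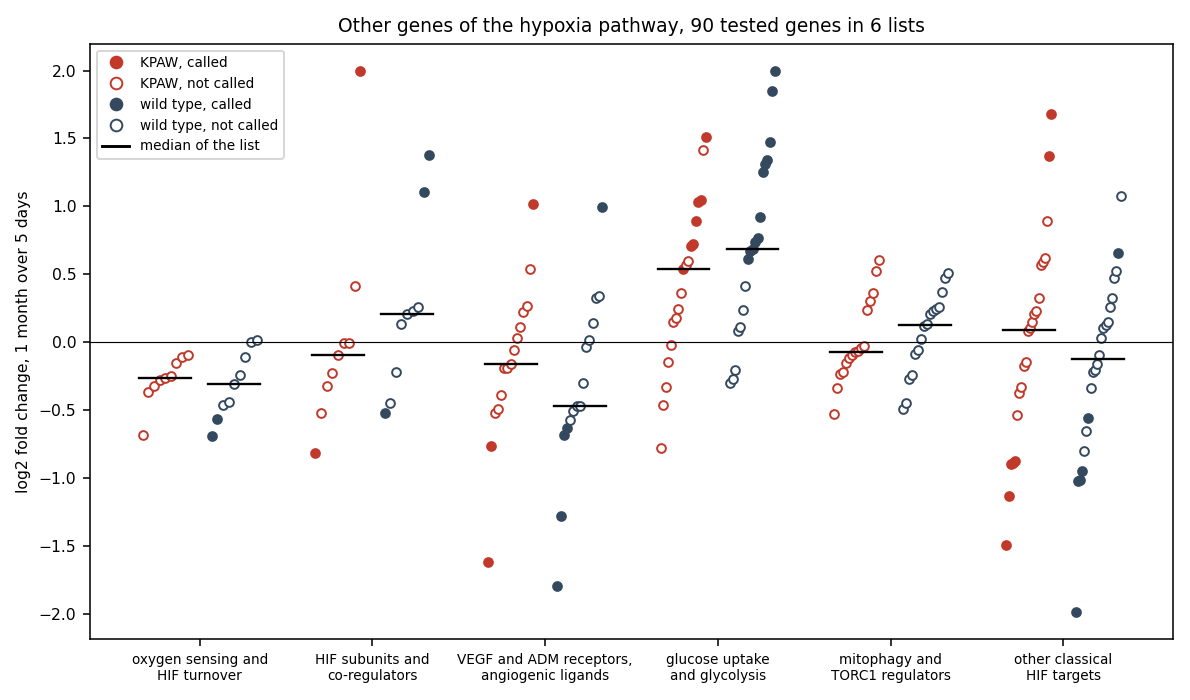
Log2 fold change of 1 month over 5 days for 90 other genes of the hypoxia pathway in 6 lists, KPAW left of wild type, with filled points for calls and a bar at each list's median. Glycolysis is the list with the highest median in both kinds of eye, at 0.54 in KPAW and 0.69 in wild type.

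Calls in the other lists stand beside those over all 9492 genes, 731 higher and 712 lower in KPAW and 825 and 976 in wild type. Of 9 genes for oxygen sensing and HIF turnover, 0 were called in KPAW, and in wild type 0 rose and 2 fell, Elob (-0.69, adjusted p = 0.0194) and Cul2 (-0.57, adjusted p = 0.0243), both parts of the VHL ubiquitin ligase. Of 9 HIF subunits, partners and co-regulators, 1 rose and 1 fell in KPAW. They were Bhlhe40 (1.997, limma adjusted p = 0.00152), a clock-linked repressor, and Mxi1 (-0.82, limma adjusted p = 0.00761), a MYC antagonist. In wild type 2 rose, Bhlhe40 (1.38, adjusted p = 0.00484) and the chaperone Hspa4l (1.104, adjusted p = 0.0263), and Mxi1 fell (-0.52, adjusted p = 0.0312). Of 16 genes for mitophagy and TORC1 control, 0 were called in either kind of eye, the nearest being Tsc2 in KPAW (-0.53, adjusted p = 0.0544) and Fundc1 in wild type (0.47, adjusted p = 0.0675).

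Among 15 receptors and ligands of vessel growth, 1 rose and 2 fell in KPAW, and 1 rose and 4 fell in wild type. Over all 9492 genes, 731 rose and 712 fell in KPAW, and 825 rose and 976 fell in wild type. Flt1, a VEGF receptor, was the one that rose, by 1.02 in KPAW (adjusted p = 0.012) and 0.99 in wild type (adjusted p = 0.011). It read 0.195 and 0.139 in KPAW and 0.1735 and 0.159 in wild type at 1 month, and 0.0748 and 0.0672 in KPAW and 0.0668 and 0.0799 in wild type at 5 days. Cxcr4, a chemokine receptor of endothelial tip cells, fell by 1.62 in KPAW (adjusted p = 0.0108) and by 1.80 in wild type (adjusted p = 0.00609). Angptl4 also fell in KPAW (-0.76, adjusted p = 0.0373), and Angpt2 (-1.285, adjusted p = 0.0421), Apln (-0.68, adjusted p = 0.0403) and, named after its value was seen, Ramp2 (-0.63, adjusted p = 0.0314) fell in wild type. Angpt2 was at the lowest listed value on wild-type array II of 1 month, so its change there depends on that limit and on the pseudocount. Endothelial markers were lower at 1 month, as given above, and their part in these counts was not tested.

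Of 22 other HIF targets, 2 rose and 5 fell in KPAW, and 1 rose and 5 fell in wild type. Among all 9492 genes the counts were 731 and 712 in KPAW, and 825 and 976 in wild type. The risers were Car12, a carbonic anhydrase (1.37, adjusted p = 0.00318 in KPAW, and 0.65, adjusted p = 0.0375 in wild type), and in KPAW Anxa1, an annexin of epithelia and white blood cells (1.68, adjusted p = 0.0488). Anxa1 read 4.42 and 3.02 in KPAW at 1 month and 2.03 and 0.6205 in KPAW at 5 days. Keratinized epithelium markers, with sums of 26.99 and 13.3 and of 8.88 and 0.527 on the same arrays, followed the same order, and their part in the Anxa1 call was not tested. Lox, which crosslinks collagen, fell by 1.497 in KPAW (adjusted p = 0.0026) and by 1.99 in wild type (adjusted p = 0.000673). Igfbp3, which binds insulin-like growth factors, fell by 1.13 in KPAW (adjusted p = 0.00385) and by 1.02 in wild type (adjusted p = 0.00489). Wsb1 fell in KPAW (-0.90, adjusted p = 0.011) and Hmox1, the heme-degrading enzyme, in wild type (-1.02, adjusted p = 0.0348). Named after their values were seen, Ndrg1 fell in both (-0.87 in KPAW and -0.95 in wild type), Kdm3a in KPAW (-0.89) and Plod1 in wild type (-0.56).

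Over all 6 lists, 11 genes rose and 8 fell with age in KPAW, and 16 rose and 12 fell in wild type, where 731 and 712 of all 9492 genes did so in KPAW and 825 and 976 in wild type. In the unscaled values, where the median of all probe sets shifted by 0.435 in wild type, the wild-type counts were 24 and 2, with 1 fall among the vessel genes, 1 among the other targets and 0 in oxygen sensing. When single arrays were left out, the KPAW counts went down to 5 rises and 3 falls (without KPAW array II of 5 days, where 0 vessel genes were called). The wild-type counts went down to 5 rises and 7 falls (without either wild-type array of 1 month) or 7 rises and 3 falls (without wild-type array I of 5 days), and 6 rises and 4 falls without array II of 5 days. The falls of Elob and Cul2 were both lost without wild-type array I of 1 month or either wild-type array of 5 days. No gene of these lists was called between KPAW and wild type at either age. The nearest at 1 month was Ppp1r3c, which read 0.239 and 0.263 in KPAW and 0.739 and 0.676 in wild type, and 0.139 to 0.195 at 5 days. Like Egln3 1418649_at, both its KPAW arrays of 1 month lay below both wild-type arrays and above all 5-day arrays (log2 difference -1.42, SE 0.17, limma adjusted p = 0.0794).

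For each member the 2 genes with the most similar profile were found by Pearson correlation of log2 signals over the 8 arrays among 9491 genes. These correlations describe arrays that fall into 2 ages. They were Qdpr (0.986) and Cds2 (0.984) for Egln3, Galt (0.991) and Arr3 (0.989) for Epas1, Dnm2 (0.959) and Mms19 (0.958) for Hif1a, and Coq10a (0.986) and Cd83 (0.978) for Bnip3. For Vegfa they were Rap1b (0.978) and Vamp3 (0.974), and for Ddit4 Smpd2 (0.972) and Rttn (0.969). For Pfkfb3 they were U2af1l4 (0.968) and Gatd3a (0.936), and for Egln1, which had the lowest values, Crim1 and Mrpl4 (0.918 each).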

How the data were processed

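Total RNA of mouse eyes, prepared with Trizol and RNeasy per the labels, was measured on 8 Affymetrix arrays, 2 in each of 4 groups. The labels do not say whether an array holds 1 eye or a pool. Per the file headers, the deposited values are a signal for each probe set on each array. The sources used here do not name the software behind them. No value lay below 0.01, 10.0% to 14.9% of an array's probe sets stood at that lowest value, and control probe sets had a median of 1. Of 22690 probe sets 64 controls were left out, and 20380 of the rest carried 1 gene symbol in the platform annotation, 691 several and 1555 none.

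Means without the top and bottom 2% of values lay between 0.142 and 0.253, and arrays were scaled to the median of these. Log2(signal + 0.0211) was fitted with limma 3.58.1 (R 4.3.3), with 4 group means over all 8 arrays, a variance trend and 4 residual degrees of freedom. The pseudocount is the 20th percentile of positive values. Probe sets with a mean signal above the 30th percentile were tested (15838). Adm lay under this filter, and the other 15 member probe sets passed it. A gene is represented by its brightest single-symbol probe set. The number of arrays limits the precision. Alternatives were other scalings, pseudocounts and filters, no variance trend, a replicate block, the contrast's groups alone and leaving out each array. The alternatives for the pathway lists were added after seeing the data. The limma step was also run on simulated log2 values with known changes and a common spread. That run does not test the scaling, pseudocount or filter.

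The members and lists were chosen with earlier results of these data known. Named are all member probe sets, paralogs, the called list genes with the largest changes (up to 3 in each direction), or the nearest 2 where none was called, and the 2 genes most like each member. Tables and plots used Python 3.11.15, pandas 2.3.3 and matplotlib 3.10.9.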

Additional observations from a re-analysis of the deposited data

How the results depend on the processing

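For the member probe sets, 974 alternative values were computed for 55 values. Of these, 62 in 30 values had the other sign, none of them called in either setting and none with a reported log2 change above 0.543 in size. A call was lost in 14 alternative values and gained in 5. The number of members called for KPAW against wild type at 1 month, 0 as reported, was 1 in the unscaled values and ran from 0 to 1 when single arrays were left out, the 1 being Egln3 without KPAW array II of 1 month. For age in wild type, 5 as reported, it was 2 without array I of either age and 3 without array II of either age, a range of 2 to 5. For age in KPAW, 3 as reported, it was 1 when only the groups compared were fitted. There the Epas1 call was also lost without KPAW array II of 5 days, and a Ddit4 call was gained without KPAW array II of 1 month. The causes were not tested.

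Over all probe sets, 4 were called between KPAW and wild type at 1 month, against 99 in the unscaled values, 13 with a replicate block, 19 with the groups compared alone, and 2 with either the 5th percentile as pseudocount or a 50th-percentile filter. Among the fits without single arrays, that without KPAW array II of 1 month called most, here and for the change between the ages. That fit leaves the rod-poor array alone in KPAW at that age. Leaving out single arrays gave 0 to 560. For the change between the ages, 0 as reported, the unscaled values gave 36 and single arrays left out 0 to 305. For age in KPAW, 2259 as reported, the unscaled values gave 1343, the groups compared alone 604 and single arrays left out 734 to 2171. For age in wild type, 2860 as reported, single arrays left out gave 842 to 3697. The share of higher calls for age in wild type was 48.3% as reported, 90.8% in the unscaled values and 37.4% with median scaling, and in KPAW it was 47.4% as reported and 65% in the unscaled values.

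Deviations of same-numbered arrays correlated at -0.017 to 0.309 between groups, with 3 of the 6 pairs of groups above 0.1 (wild type and KPAW of 5 days, and each of these with KPAW of 1 month). As not every pair did so, the numbers were not taken as pairs; a batch shared by some arrays was not tested. With the replicate block, 6 member probe sets were called for age in wild type (Hif1a 1427418_a_at besides the 5 reported, adjusted p = 0.0433 in limma), 3 for age in KPAW and 0 in the other comparisons.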
